A study of Mus musculus with 8 samples.

Results

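The comparison was of V6.5 mouse embryonic stem cells carrying a short hairpin RNA against Smc2 with the same cells carrying a hairpin against GFP, a jellyfish gene that serves here as the control target. It took 4 of the 8 arrays of the series, chosen by their labels: 1 array with Smc2 hairpin 1, 1 array with Smc2 hairpin 2, and 2 replicate arrays of a single GFP hairpin. The other 4 arrays, 2 of a CapH2 knockdown (gene Ncaph2, hairpins 3 and 4) and 2 of an Smc1 knockdown (gene Smc1a, 1 hairpin in duplicate), entered only the estimate of the spread and the direct comparisons given near the end. All cells took up virus in medium with polybrene at 8 µg/ml, were then selected in puromycin at 4 µg/ml for 4 days, and gave their RNA on day 5, so the GFP cells shared infection, selection and the presence of a hairpin. Each array was loaded with material made from 100 ng of total RNA. The label of each Smc2 array names a different hairpin, so the spread of the pair holds the difference between hairpins as well as that between cultures. No label says that the arrays of one group came from separate cultures, and p-values then measure only the spread between these arrays, which may be technical.

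Smc2 is one of the paired ATPases at the core of condensin, the ring-shaped complex that compacts chromosomes for mitosis. It is shared by condensin I, which reaches chromosomes after the nuclear envelope has broken down, and condensin II, which sits in the nucleus throughout the cell cycle, so its loss touches both complexes. The series as a whole is about where condensin II sits on chromosome arms of stem cells in relation to transcription, and the arrays ask which transcripts change when condensin or cohesin is reduced.

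The values are intensities, 1 deposited number per probe set and array on a linear scale. For each of 12394 genes tested the brightest probe set stood for the gene, and a log2 change is the difference of log2(intensity + 16), which understates changes of dim genes. A gene was called at a limma adjusted p below 0.05 over all genes tested. "Gap" below means the distance between the closest Smc2 and GFP arrays on that log2 scale, positive where both Smc2 arrays lay above both GFP arrays.

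The hairpin 1 array stood apart before any gene was examined. Over all genes tested its log2 intensities correlated at 0.968 with the hairpin 2 array, at 0.950 and 0.953 with the GFP arrays and at 0.985 with the array of CapH2 hairpin 3. The hairpin 2 array correlated at 0.978 and 0.973 with the GFP arrays and at 0.984 with CapH2 hairpin 4, and the GFP arrays correlated at 0.981 with each other. Array medians were 62.5 for hairpin 1, 68.9 for hairpin 2, and 69.4 and 74.3 for GFP. The 3′ to 5′ signal ratio of the Actb controls, a measure of RNA length, was 1.82 with hairpin 1, 2.18 with hairpin 2, and 2.18 and 2.04 for GFP. Embryonic stem cell markers were bright on all 4 arrays, with Pou5f1 between 11068 and 13641, so the labelled cell type was borne out.

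Smc2 itself was the 1 gene called lower than GFP over both hairpins. Its intensity was 2234 with hairpin 1 and 2859 with hairpin 2, against 8756 and 7146 on the GFP arrays, and the Smc2 mean was 32.0% of the GFP mean. The groups did not overlap, and hairpin 1 gave the lower value. The log2 change was -1.64 (SE 0.172, 95% interval -2.02 to -1.26, limma adjusted p = 0.0154). Of the other Smc2 probe sets, 3 dimmer ones read 27.1%, 29.3% and 30.8% of their GFP means, while the remaining one read 81.4% and gave a log2 change of 0.22 on hairpin 2. RNA from a whole culture cannot tell fewer cells expressing a gene from less RNA per cell, here or in the results that follow. The call was lost without Smc2 hairpin 1 (log2 change -1.46, adjusted p = 0.0822), without either GFP array (adjusted p = 0.155 and 0.118) and without either Smc1 array (0.0674 and 0.0662), with the same direction each time.

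Beyond Smc2, only Hnrnpll passed the test of both hairpins against GFP. The limma fit called 2 of 12394 genes, 0.0161%, with 1 higher and 1 lower. An unadjusted p below 0.05 was reached by 1560 genes (12.6%), 902 higher (7.28%) and 658 lower (5.31%). Both Smc2 arrays lay above both GFP arrays for 2869 genes, 23.1% of those tested, and below both for 2694, 21.7%. These shares are the background for every count of non-overlapping genes below. Past a 2-fold change on each hairpin the counts were 155 genes higher (1.25%) and 51 lower (0.411%). Most of these were dim: 103 of the 155 had a GFP mean below the lowest array median, and 28 of the 51 had an Smc2 mean below it. Without the filter on dim genes 219 were higher and 155 lower, so the size of the excess of higher genes depended on that filter. On hairpin 1 alone, more genes were at least 2-fold lower than at least 2-fold higher. The number called depended on how the spread was estimated, from 0 with only the 4 arrays of the comparison to 299 where each hairpin was given a mean of its own, and it was 0 without hairpin 1 and 194 without hairpin 2. The balance of directions depended on the scale: higher genes made up 51.6% of the non-overlapping genes as deposited, 56.1% after quantile normalization and 66.9% after median centring, which moved the median change of all genes from -0.01 to 0.10.

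**Figure D1:**
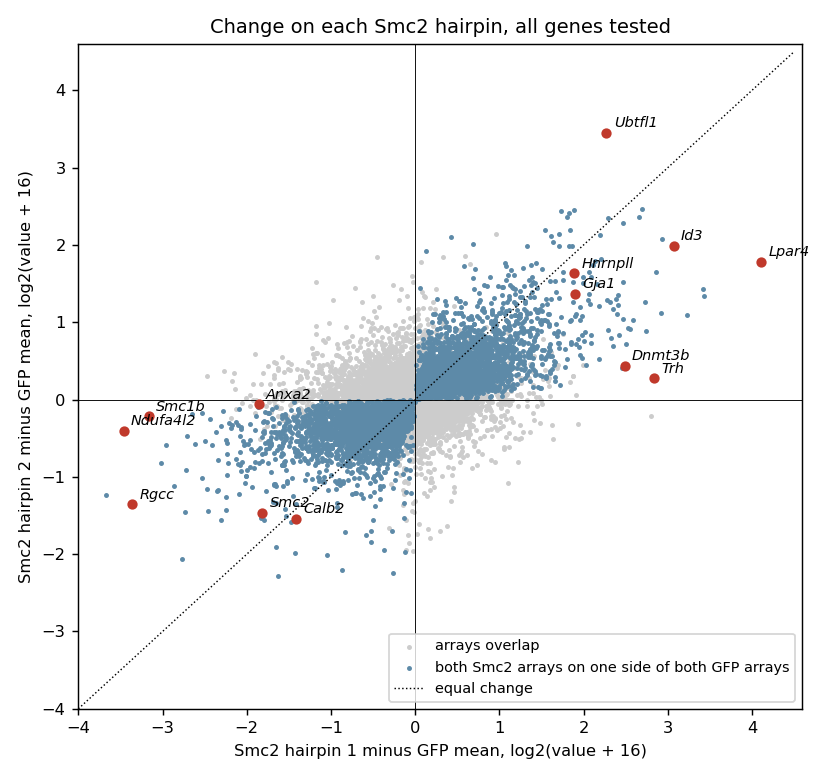
Each point is 1 of the 12394 genes tested, with its log2 change from the GFP mean on Smc2 hairpin 1 (horizontal axis) and on hairpin 2 (vertical axis); blue points have both Smc2 arrays on one side of both GFP arrays, and the dotted line marks equal change. Hnrnpll and Smc2 lie near the dotted line, while Dnmt3b (2.49 on hairpin 1, 0.44 on hairpin 2) and Trh (2.84 and 0.28) lie far to its right; both axes share the GFP mean.

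The hairpins differed in the size of their changes. The median absolute log2 change from the GFP mean was 0.34 on hairpin 1 and 0.21 on hairpin 2, and among the 5563 genes that did not overlap with GFP, hairpin 1 was the further array in 3952, or 71%. Across genes, the change on hairpin 1 against one GFP array correlated with that on hairpin 2 against the other at 0.243, and at 0.390 with the GFP arrays exchanged, a description over genes that are not independent. In a limma fit with each hairpin as a group of its own, hairpin 1 had 893 genes called (7.21%), 410 higher (3.31%) and 483 lower (3.90%), while hairpin 2 had 1 (0.00807%), Hnrnpll, with 884 (7.13%) at an unadjusted p below 0.05. Here the spread came from the Smc1 and GFP duplicates, a lone array was assumed to vary like these, and the effect of a hairpin cannot be told apart from that of its array. The hairpin 1 count was 156 without GFP replicate 1, 383 without GFP replicate 2, 1744 and 1733 without either Smc1 array, and 0 when the spread was moderated without an intensity trend, so each hairpin 1 call below holds in that fit only. The shares called on hairpin 1 are the background for every count of hairpin 1 calls below.

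Hnrnpll, an RNA-binding protein best known for switching exons of transcripts in activated lymphocytes, was the 1 gene called higher over both hairpins. It read 5654 with hairpin 1 and 4742 with hairpin 2 against 1450 and 1587 for GFP, with no overlap and little spread in either group. The log2 change was 1.76 (SE 0.156, limma adjusted p = 0.00664), and in the fit per hairpin the adjusted p was 0.00062 for hairpin 1 and 0.0241 for hairpin 2. The hairpin 2 call was lost without either GFP array (adjusted p = 0.0651 and 0.0570), without the filter on dim genes (0.244), after quantile normalization (0.0643) or median centring (0.0801), with the mean of all probe sets (0.451) and without an intensity trend (0.413), where that of hairpin 1 was lost too (0.0609). A second Hnrnpll probe set read 3409 and 3494 against 1423 and 1652, a log2 change of 1.16. All 3 knockdowns share the GFP arrays, and against these the log2 change of Hnrnpll was also 1.77 in the CapH2 and 1.78 in the Smc1 knockdown. Without hairpin 1 it was 1.63 (adjusted p = 0.0524), and the adjusted p over both hairpins was 0.0780 and 0.118 without either GFP array, 0.123 without an intensity trend and 0.0635 with only the 4 arrays of the comparison.

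Among 26 tested hnRNP and related splicing factors, 12 lay above both GFP arrays and 1 below, with a median log2 change of 0.11 against -0.01 over all genes. Hnrnpll was the 1 member called. Hnrnpu, a scaffold protein that binds nuclear RNA and chromatin, read 16608 and 9827 against 6892 and 8590 and rose on hairpin 1 (adjusted p = 0.0073), with a log2 change of 0.35 on hairpin 2. Hnrnpa0 read 7520 and 7059 against 4387 and 4805, a near-equal shift on both hairpins (log2 change 0.66, SE 0.147, adjusted p = 0.191). Ptbp2, the neural relative of the splicing repressor Ptbp1, read 2730 and 2257 against 1894 and 1656. The member below GFP was Hnrnpul1, at 3680 and 4082 against 6035 and 6009.

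Ranked by gap above both GFP arrays, and with a mean of at least 200 in the brighter group, the first 14 were Ubtfl1, Has2, Id3, Hnrnpll, Hs6st2, Gja1, Pdlim3, BC080696, Lox, A930024E05Rik, Gm20767, Nmi, Marveld1 and Car3. Apart from Hnrnpll none passed the test over all genes, with adjusted p between 0.121 and 0.232. Of these 14 genes 7 had other probe sets, and 12 of those 16 changed in the same direction.

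Gja1, the gap junction protein connexin 43, was the brightest of the 14. It read 12905 and 8947 with the Smc2 hairpins against 3410 and 3497 with GFP. The change was 1.63 on the log2 scale (SE 0.226, limma adjusted p = 0.121). The Smc2 arrays were both far above the tight GFP pair, and hairpin 1 passed alone (adjusted p = 0.00062, against 0.0563 for hairpin 2). The probe set is of a class whose probes may match other transcripts; 2 further Gja1 probe sets gave log2 changes of 2.04 and 1.49, and a dim one 0.17.

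Id3, an inhibitor of basic helix-loop-helix factors that BMP signalling switches on, read 667 with hairpin 1 and 307 with hairpin 2 against 57.9 and 73.3. Hairpin 1 was the higher array, and the lower of the pair still exceeded both controls. The log2 change was 2.53 (SE 0.594, adjusted p = 0.221), and Id3 rose on hairpin 1 (adjusted p = 0.00062). The 250 bases before the start sites of Id3 and Gja1 are shown because these were the largest change among signalling genes and the brightest of the ranked genes. Both come from RefSeq (GRCm38.p6), at chr4:136143572-136143821 for Id3 and chr10:56377050-56377299 for Gja1, both on the plus strand, with any GGGCGG or CCGCCC (the GC box on either strand) and TATAAA or TTTATA in capitals.

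Id3: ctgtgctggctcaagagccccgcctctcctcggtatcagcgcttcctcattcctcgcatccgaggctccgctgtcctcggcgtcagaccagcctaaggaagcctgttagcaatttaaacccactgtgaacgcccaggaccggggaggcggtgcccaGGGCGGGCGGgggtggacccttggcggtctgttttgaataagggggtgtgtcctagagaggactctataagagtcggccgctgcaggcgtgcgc
Gja1: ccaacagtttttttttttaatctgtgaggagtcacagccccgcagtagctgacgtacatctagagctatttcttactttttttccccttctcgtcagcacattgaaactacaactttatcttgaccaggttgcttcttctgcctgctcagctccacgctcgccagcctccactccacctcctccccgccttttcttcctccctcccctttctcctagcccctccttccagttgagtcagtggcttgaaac

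The Id3 window held 18 CpG and 2 overlapping copies of GGGCGG, and the Gja1 window 6 CpG and none of the searched letters. Over the 10025 windows of that length matched to genes tested, the median was 16 CpG, 59.7% held a GC box and 6.46% TATAAA or TTTATA. A comparison of the 100 genes with the largest positive gap was void, because 75 of them had a window, under the 80% needed. Of the 100 with the largest negative gap 85 had one, and 52.9% of these held a GC box and 8.24% a TATAAA or TTTATA. The median of these 85 windows was 13 CpG, and that of the 75 windows of the positive gaps was 12, given as a description only. The match of letters describes the sequence only.

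Has2, Hs6st2 and Lox, which act on the matrix outside the cell, were also among the 14, and none was called over both hairpins. Has2, a hyaluronan synthase, read 345 and 184 against 25.4 and 38.0. Hs6st2, which adds sulfate to heparan chains, read 344 and 260 against 45.9 and 82.8. Lox, the enzyme that crosslinks collagen and elastin, read 235 and 174 against 33.9 and 63.96. In all 3 genes the Smc2 arrays were several times above controls that lay below the array medians or close to them, and each rose on hairpin 1 alone (adjusted p = 0.00449, 0.011 and 0.0181). Marveld1, a membrane protein, was brighter, at 3234 and 1637 against 694 and 707, and also rose on hairpin 1 (adjusted p = 0.000795). Pdlim3, which binds actin filaments through alpha-actinin, read 227 and 235 against 84.2 and 8.47, so that its controls differed from each other far more than the hairpins did.

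**Figure D2:**
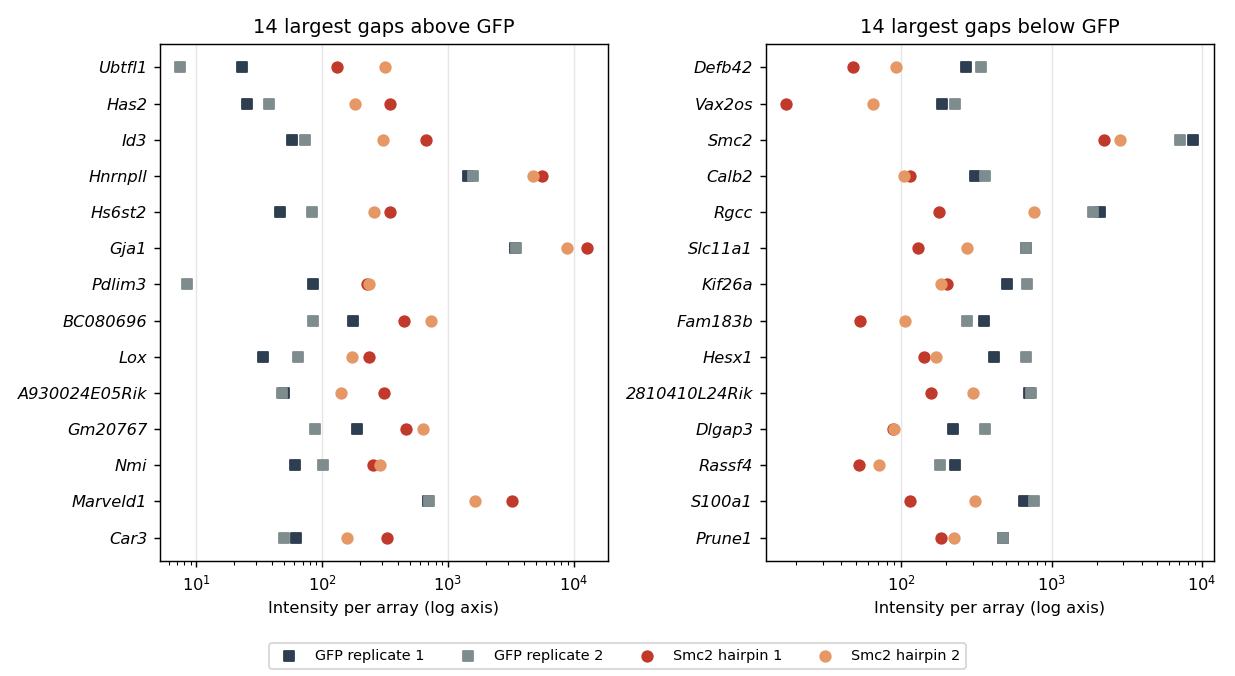
Intensity on each of the 4 arrays (log axis) for the 14 genes with the largest gap above and the 14 with the largest gap below the GFP arrays; squares are the GFP replicates and circles the Smc2 hairpins. Circles and squares do not overlap for any of these genes, which is how they were ranked, and Hnrnpll, Gja1 and Smc2 are the only ones with every array above 1000.

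The genes furthest below GFP were Defb42, Vax2os, Smc2, Calb2, Rgcc, Slc11a1, Kif26a, Fam183b, Hesx1, 2810410L24Rik, Dlgap3, Rassf4, S100a1 and Prune1. Smc2 was the 1 member called, and the others had adjusted p between 0.166 and 0.268. Other probe sets existed for 7 of the 14 genes, and 10 of those 12 changed in the same direction. Rgcc, a regulator of the cell cycle induced by complement, read 180 and 768 against 2097 and 1887. Both hairpins lay below, hairpin 1 much further, and Rgcc fell on hairpin 1 (log2 change -3.36, adjusted p = 0.00062).

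Calb2, the calcium-binding protein calretinin, was close on the 2 hairpins, at 115 and 104 against 309 and 359 (log2 change -1.48, SE 0.285, adjusted p = 0.166). Dlgap3, a scaffold of the synapse, read 87.8 and 89.3 against 222 and 363, again with near-equal hairpins. Hesx1, a homeobox repressor of the anterior embryo, read 141 and 169 against 415 and 674. Slc11a1, a metal ion transporter of phagosomes, read 130 and 272 against 673 on both GFP arrays, so the hairpins differed while the controls did not. Defb42, a defensin, read 48.0 and 92.1 against 269 and 337.

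No other condensin subunit was called, and Smc2 was the 1 member that passed of the 5 subunits tested in each complex. Smc4, the ATPase partner of Smc2, read 8013 and 11034 against 12475 and 9957, with the arrays overlapping (log2 change -0.24). Of condensin I, the kleisin Ncaph read 5451 and 5876 against 6284 and 7127, and the HEAT-repeat subunit Ncapd2 read 3155 and 3467 against 3607 and 4411. Both lay below the controls by small margins (log2 change -0.24 and -0.27, adjusted p = 0.584 and 0.566). Ncapg overlapped, at 2495 and 3785 against 4096 and 2864. Of condensin II, Ncaph2 read 2134 and 3049 against 3469 and 3168 and Ncapg2 read 1855 and 1983 against 2355 and 2089, while Ncapd3 overlapped. Apart from Smc2, 2 subunits of each complex thus lay below both GFP arrays and 0 above, by the brightest probe set. The other Ncaph2 probe sets overlapped with GFP (log2 change 0.31, -0.31 and -0.05), as did the other one of Ncaph (-0.20). The other Ncapd2 probe set lay below (-0.49).

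Genes of the sister complexes and of chromosome segregation had list medians between -0.13 and 0.12, and none was called on both hairpins together. Of 17 tested genes of cohesin and its regulators, 3 lay above and 6 below both GFP arrays, with a median log2 change of 0.01. Wapl, which releases cohesin from DNA, read 3825 and 4540 against 5242 and 5524 (log2 change -0.37). A second bright Wapl probe set went the other way, at 3211 and 3239 against 2495 and 1913 (0.56). Dimmer Wapl probe sets gave 0.47, 0.20 and -0.28. Esco2, which locks cohesin by acetylation in S phase, read 2808 and 3867 against 4794 and 4761. Of 8 members of the Smc5/6 complex 2 lay above and 1 below; Slf1, which helps bring it to damaged DNA, read 621 and 545 against 387 and 337. Of 27 condensin regulators and chromosome scaffold genes 4 lay above and 4 below, and Sgo2a, the protector of centromeric cohesion, fell on hairpin 1 (2576, with 4809 on hairpin 2, against 5667 and 5131, adjusted p = 0.0115). Of 43 mitotic genes 3 lay above and 8 below (median -0.13, with -0.25 on hairpin 1 and 0.02 on hairpin 2). Kif18a, the kinesin that limits chromosome oscillation, read 1795 and 2005 against 2372 and 2971. None of these 43 passed on either hairpin.

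The core pluripotency factors differed from the controls by small margins, and none was called. Pou5f1 read 11068 and 12279 against 13641 and 11327, Sox2 read 14368 and 14726 against 15202 and 19892, and Nanog read 12780 and 14410 against 15590 and 14690. Pou5f1 overlapped, and Sox2 and Nanog lay just below both controls (log2 change -0.26 and -0.16, adjusted p = 0.57 and 0.583). The sign for Pou5f1 turned with the scaling, from -0.09 as deposited to 0.01 after median centring. Klf4 and Zfp42 overlapped, with log2 changes of 0.27 and 0.13. Of 18 general pluripotency genes 7 lay above and 2 below. Dppa2, a chromatin-associated factor of early embryos and stem cells, read 8660 and 6577 against 3533 and 4717 and rose on hairpin 1 (adjusted p = 0.0172), with a log2 change of 0.69 on hairpin 2.

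The naive and primed genes that did not overlap with GFP lay below it in the naive list and above it in the primed list. Naive pluripotency is the state of the inner cell mass that mouse stem cells hold in culture, and primed pluripotency that of the epiblast after implantation. Of 18 naive genes tested 0 lay above and 7 below both GFP arrays, and 4 fell on hairpin 1 (3.90% of all genes tested did). Their median log2 change was -0.15, with -0.15 on hairpin 1 and -0.25 on hairpin 2. Of 15 primed genes 8 lay above and 0 below, with a median of 0.62 (0.86 on hairpin 1 and 0.39 on hairpin 2), and 7 rose on hairpin 1 (3.31% of all genes tested did). The other 11 naive and 7 primed genes overlapped with the controls. No member of either list was called on both hairpins together or on hairpin 2. These lists were drawn up with results of these arrays known and are not independent evidence of a direction.

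Prdm14, a repressor that shields the naive state and founds the germline, read 717 and 1064 against 2159 and 2487. Both hairpins were below, and it fell on hairpin 1 (adjusted p = 0.0228), with a log2 change of -1.39 (SE 0.352, adjusted p = 0.226) over both. Tcl1, an activator of the Akt kinase, read 1401 and 2016 against 3104 and 3931 and fell on hairpin 1 (adjusted p = 0.0361). Pecam1, a surface molecule of stem and endothelial cells, read 272 and 378 against 686 and 675 and also fell on hairpin 1 (adjusted p = 0.0462). Klf2, a Krüppel-like factor of the naive network, read 2448 and 2999 against 4940 and 4886, and Esrrb, a nuclear receptor of that network, read 2425 and 2614 against 3435 and 4019. Neither passed a test, although neither overlapped.

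On the primed side the hairpins differed more. Dnmt3b, a methyltransferase that sets new DNA methylation, read 12177 with hairpin 1 and 2928 with hairpin 2 against 1850 and 2511. Only hairpin 1 stood well apart from the controls (adjusted p = 0.000444, against 0.722 for hairpin 2). Its relative Dnmt3a read 3086 and 1194 against 763 and 663, and Pou3f1, the POU factor Oct6, read 1335 and 452 against 232 and 277. Tcf15, a helix-loop-helix factor of cells leaving the naive state, read 2059 and 854 against 457 and 485. In all of these hairpin 2 sat between the controls and hairpin 1, and each rose on hairpin 1 (adjusted p = 0.00163, 0.000668 and 0.00156). Nodal, the ligand that patterns the epiblast, had equal hairpins, at 2938 and 2936 against 1424 and 2237 (log2 change 0.71, SE 0.232, adjusted p = 0.279).

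**Figure D3:**
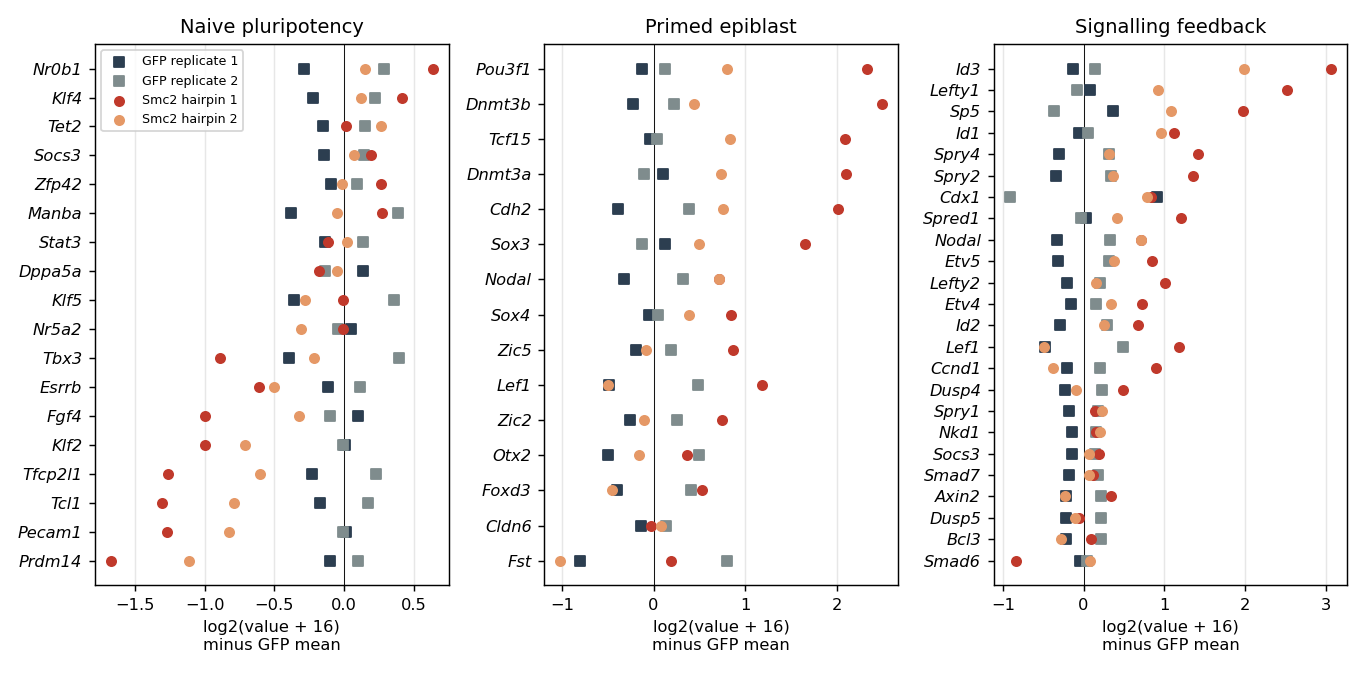
Each row is a gene and each mark an array, as log2(intensity + 16) minus the mean of the GFP arrays, for the naive pluripotency, primed epiblast and signalling feedback genes tested; squares are GFP and circles Smc2. In the primed list hairpin 1 (red) lies right of the controls for most genes and hairpin 2 (orange) closer to them, with list medians of 0.86 and 0.39.

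Of 24 signalling feedback genes tested, among them reporters of BMP, Nodal, FGF and Wnt signalling, 11 lay above both GFP arrays and 0 below. The median log2 change was 0.50 (0.78 on hairpin 1 and 0.24 on hairpin 2), and 7 of the 24 rose on hairpin 1 (3.31% of all genes). Lefty1, an inhibitor of Nodal that Nodal itself induces, read 10270 and 3373 against 1871 and 1676 and rose on hairpin 1 (adjusted p = 0.00062). Both hairpins exceeded the controls, hairpin 1 by far the more. Id1, a relative of Id3, had closer hairpins, at 1899 and 1707 against 832 and 902, a log2 change of 1.04 (SE 0.257, adjusted p = 0.226). Sp5, a target of Wnt signalling, was dim, at 114 and 53.96 against 26.5 and 9.75.

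Among 24 immediate early genes and targets of the serum response factor Srf, 9 lay above and 4 below, with a median of -0.02. Egr1, the early zinc finger factor that ERK signalling induces, read 2104 and 569 against 288 and 313 and rose on hairpin 1 (adjusted p = 0.00142). Cnn1 and Myl9, a calponin and a myosin light chain of smooth muscle, read 145 and 43.9 against 11.9 and 14.2, and 682 and 340 against 142 and 273, and both rose on hairpin 1 (adjusted p = 0.0134 and 0.0173). Jun, part of the AP-1 factor, read 258 and 239 against 142 and 190.

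Of 18 tested meiotic cohesin and germline genes 12 lay below both GFP arrays and 0 above, with a median log2 change of -0.44 (-0.61 on hairpin 1 and -0.27 on hairpin 2). Of these 6 fell on hairpin 1 (3.90% of all genes). Dazl, an RNA-binding protein of germ cells, read 533 and 1292 against 1830 and 2832 (adjusted p = 0.0112 on hairpin 1). Prdm1, known as Blimp1, read 235 and 328 against 557 and 898, and Hormad1, a protein of the meiotic chromosome axis, read 1136 and 1870 against 2776 and 3330. Both fell on hairpin 1 (adjusted p = 0.0426 and 0.0257), and hairpin 2 lay below the controls as well. Smc1b, the meiotic form of Smc1, read 69.3 and 644 against 849 and 660, so that hairpin 2 nearly met the lower control.

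Markers of differentiated lineages gave a mixed picture. Of 14 neural and ectodermal genes 7 lay above and 2 below (median 0.51, with 0.86 on hairpin 1 and 0.08 on hairpin 2). Neurod1, a helix-loop-helix factor of neurons, was alike on both hairpins, at 2487 and 2645 against 1137 and 1054 (log2 change 1.22, SE 0.238, adjusted p = 0.166), and Sox11 read 929 and 521 against 287 and 265. Both rose on hairpin 1 (adjusted p = 0.0337 and 0.00713). Gbx2, a homeobox gene that Stat3 induces in stem cells, read 1612 and 355 against 141 and 176. Summed over the list the intensity was 28028 and 23314 with Smc2 against 22767 and 25987 with GFP.

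Of 21 trophectoderm genes 2 lay above and 7 below (median -0.44), and 6 fell on hairpin 1 (3.90% of all genes), among them Ascl2, a factor of the placenta that read 39.5 and 130 against 175 and 333, and Rhox9, at 285 and 468 against 650 and 682. The sum was 22532 and 28121 against 28858 and 37022. Of 16 genes of primitive and extraembryonic endoderm 4 lay above and 3 below, and Sparc, a secreted matrix protein, fell on hairpin 1 (1791, with 3763 on hairpin 2, against 4151 and 5616, adjusted p = 0.00524). Of 10 mesendoderm and mesoderm genes 3 lay above and 2 below, with sums of 5592 and 6656 against 4844 and 8091.

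Markers of feeder fibroblasts, on which stem cells are often grown, were checked because Lox is one of them. Of 23 tested 8 lay above both GFP arrays and 0 below (median 0.25), and the sum was 3700 and 4184 on the Smc2 arrays against 2795 and 3366 on the GFP arrays. Of the 6 collagen genes among them 1 lay above both GFP arrays, Col5a2, at 222 and 148 against 96.8 and 80.1, and 5 overlapped. Col1a1 read 5.06 and 68.2 against 36.3 and 71.1, Col1a2 read 176 and 281 against 127 and 183, and Col3a1 read 60.9 and 46.3 against 55.9 and 68.5. Cxcl12, a chemokine, read 160 and 171 against 45.6 and 53.8 and rose on hairpin 1 (adjusted p = 0.0387), as did Lox. Cd44, the hyaluronan receptor, read 138 and 189 against 58.2 and 37.6, close to the array medians. The part of such cells in the values of Has2, Hs6st2 and Lox was not tested.

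Genes of the 2-cell-like state, a rare state of stem cell cultures that resembles the embryo just after its genome is switched on, were few on the array. Of 9 tested 6 lay above and 1 below, with a median log2 change of 0.99 (0.69 on hairpin 1 and 1.30 on hairpin 2), so the list stood higher with hairpin 2. Usp17la, a deubiquitinase, read 844 and 1250 against 392.3 and 132. Arg2, an arginase, read 187 and 178 against 65.5 and 39.3, and Tcstv3 read 76.4 and 107 against 33.9 and 1.83. The groups did not overlap but the GFP arrays were far apart, and none of these 3 passed on either hairpin. Zfp809, a zinc finger silencer of retroviruses, read 902 and 671 against 360 and 410 and rose on hairpin 1 (adjusted p = 0.0228). Ubtfl1, an HMG-box gene of early embryos outside that list, headed the ranking by gap, at 130 and 316 against 23.2 and 7.43.

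Of 36 interferon-stimulated and antigen presentation genes tested 13 lay above and 4 below, with a median of 0.28. Ifit2, which binds foreign RNA, read 146 and 127 against 22.4 and 6.48, a log2 change of 2.37 (SE 0.358, adjusted p = 0.131) with near-equal hairpins. Oasl2 read 100 and 67.6 against 20.6 and 25.03. Both rose on hairpin 1 (adjusted p = 0.0138 and 0.0452). Stat2, which carries the interferon signal, went the other way, at 75.7 and 66.6 against 157 and 162.

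Of 27 imprinted genes 13 lay above and 3 below (median 0.30). The noncoding transcripts of the Dlk1-Meg3 locus were among the higher ones: Meg3 read 6103 and 5196 against 3953 and 2814, and Mirg read 618 and 344 against 123 and 192. Each rose on hairpin 1 (adjusted p = 0.0361 and 0.00762). Cdkn1c, the inhibitor p57, read 977 and 701 against 545 and 460. Snrpn, which was dim, lay below GFP, at 39.3 and 38.1 against 75.2 and 69.4. Over the whole list 4 genes rose on hairpin 1 and 2 fell (3.31% and 3.90% of all genes).

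Of 30 genes tested of glycolysis and the hypoxia response 1 lay above and 13 below (median -0.23, with -0.48 on hairpin 1 and -0.08 on hairpin 2), and 7 fell on hairpin 1 (3.90% of all genes). Hk1, a hexokinase that takes the first step of glycolysis, read 469 and 1010 against 1617 and 2160 (adjusted p = 0.0054 on hairpin 1). Both hairpins were below the controls. Car9, a carbonic anhydrase induced by low oxygen, read 33.4 and 89.95 against 167 and 131 and also fell on hairpin 1 (adjusted p = 0.0367).

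Lists of growth, stress and genome maintenance had median log2 changes between -0.10 and 0.10 over both hairpins, though the hairpins could differ. The median was 0.37 on hairpin 1 and -0.12 on hairpin 2 for Myc targets and ribosome biogenesis, and -0.26 and 0.05 for cholesterol synthesis. Of 43 ribosomal protein genes 1 lay above and 2 below, and of 38 Myc targets and ribosome biogenesis genes 4 lay above and 2 below. Myc itself read 513 and 135 against 35.8 and 77.9 and rose on hairpin 1 (adjusted p = 0.00907). Of 43 replication genes 11 lay above and 7 below, and Fen1, the flap nuclease of lagging strand synthesis, rose on hairpin 1 (4707, with 2885 on hairpin 2, against 2405 and 2193, adjusted p = 0.0144). Of 34 DNA repair genes 7 lay above and 11 below, and of 31 stress response genes 5 above and 10 below. Of 20 cholesterol synthesis genes 3 lay above and 6 below, and of 44 Mediator and polymerase pausing genes 9 above and 6 below. Med1, a Mediator subunit that contacts nuclear receptors, read 1144 and 757 against 577 and 505 and rose on hairpin 1 (adjusted p = 0.0304). Its other probe sets were divided, with log2 changes of 0.72, 0.26, -0.09, -0.11, -0.13 and -1.07. The last of these read 203 and 320 against 577 and 530, so the direction for Med1 depended on the probe set.

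Of 25 p53 targets 6 lay above and 2 below. Cdkn1a, the inhibitor p21 that p53 induces, was among the lower ones, at 1629 and 2396 against 2655 and 3487, and fell on hairpin 1 (adjusted p = 0.0342). Plk2, a polo-like kinase, was alike on both hairpins, at 1815 and 1871 against 723 and 948, and rose on hairpin 1 (adjusted p = 0.0199). Rrm2b, a subunit of ribonucleotide reductase, fell on hairpin 1 (405, with 826 on hairpin 2, against 1319 and 1216, adjusted p = 0.00494). Of 27 apoptosis genes 7 lay above and 4 below, and on hairpin 1 1 rose and 2 fell. Bcl2l11, the cell death inducer Bim, read 959 and 742 against 457 and 501. Its other probe sets gave log2 changes of 0.42, 0.18, 0.11 and -0.62. Bmf and Bak1 lay below GFP, at 569 and 728 against 911 and 986, and 378 and 332 against 502 and 473. Bcl2, which was dim, lay above, at 69.9 and 111 against 7.78 and 6.64. Each of these genes also had a probe set with the opposite sign. Of 33 polycomb and DNA methylation genes 11 lay above and 8 below. Rbbp7, a histone-binding subunit of several chromatin complexes, read 21361 and 19324 against 13220 and 12945 (log2 change 0.63, SE 0.103, adjusted p = 0.156). Aebp2, a cofactor of PRC2, read 2569 and 3012 against 1722 and 1579 (log2 change 0.75). The other Aebp2 probe sets were divided, with log2 changes of 0.65, -0.12, -0.15 and -0.46. Of 42 listed histone genes 2 were tested and both overlapped.

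**Figure D4:**
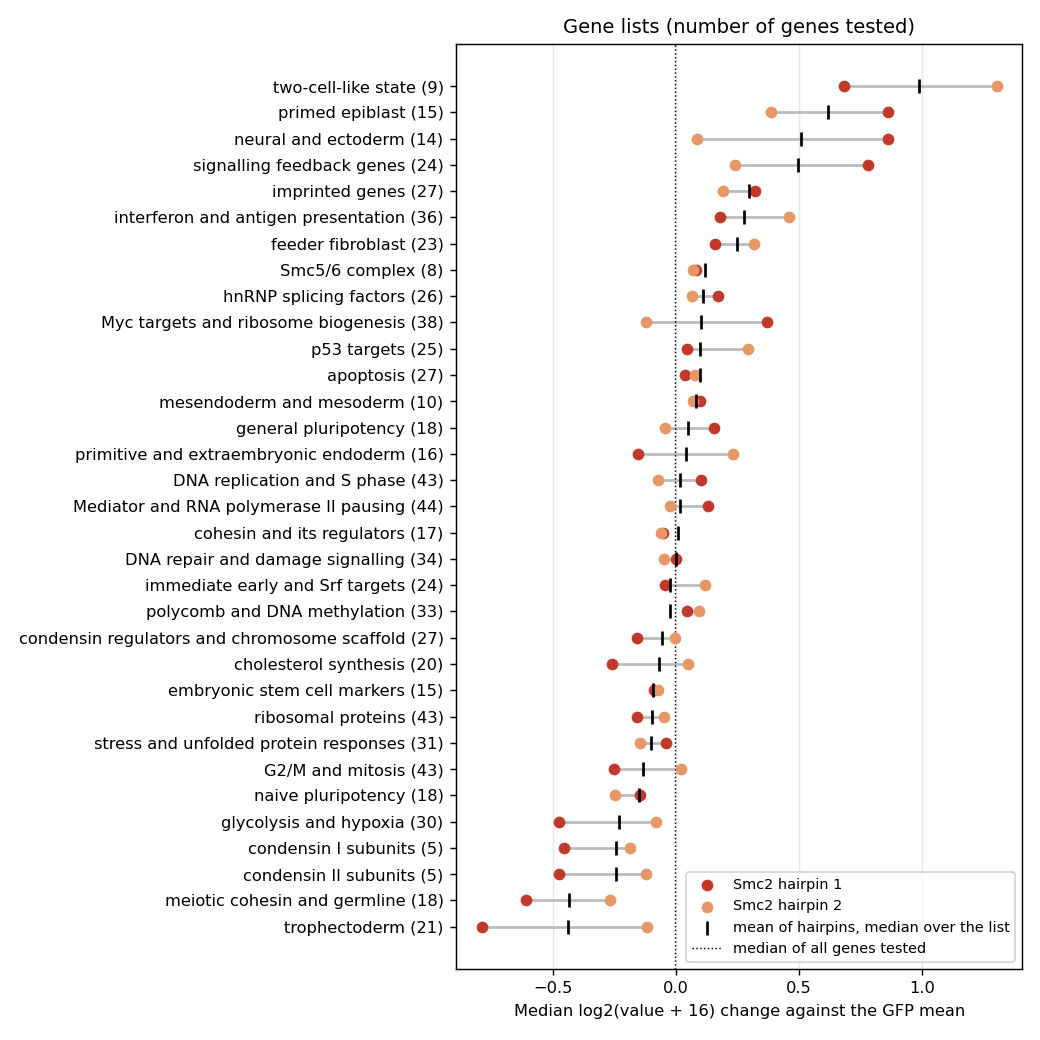
Median log2 change from the GFP mean over each gene list, for hairpin 1 (red), hairpin 2 (orange) and their mean (black bar), with the number of genes tested in brackets; the dotted line is the median of all genes tested. The 2-cell-like genes (0.99), primed epiblast (0.62), neural (0.51) and signalling feedback genes (0.50) lie furthest right, and germline and trophectoderm genes (both -0.44) furthest left.

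The difference between the hairpins was itself tested, and 5 genes were called (0.0403%). Dnmt3b and Trh were higher with hairpin 1 (0.0161% of genes), and Anxa2, Tagln2 and Tgm2 with hairpin 2 (0.0242%); the last 3 were singled out after their values were seen. Trh, the precursor of thyrotropin-releasing hormone, read 4630 with hairpin 1 and 770 with hairpin 2, with 537 and 746 on the GFP arrays. Hairpin 2 was at the level of the controls, and the hairpins differed by -2.56 on the log2 scale (hairpin 2 minus hairpin 1, SE 0.277, limma adjusted p = 0.00889). For Dnmt3b the difference was -2.05 (SE 0.242, adjusted p = 0.00889). Anxa2, a membrane-binding annexin, read 1726 and 6042 against 6347 and 6226 and differed by 1.80. Tagln2, an actin-binding protein, read 1384 and 4786 against 5820 and 6234, and Tgm2, a transglutaminase, 604 and 2193 against 3062 and 2367.

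In each of the 5 the Smc2 hairpin 1 array was further from the controls than the Smc2 hairpin 2 array. The CapH2 arrays, which are no part of that difference, split in the same direction: Dnmt3b read 9522 with CapH2 hairpin 3 and 4871 with hairpin 4, and Trh 3246 and 1427. Tgm2 read 910 and 1769 there. The count of 5 was 0 without the filter on dim genes, with the mean of all probe sets or without an intensity trend, and 463 without Smc1 replicate 2 and 473 without Smc1 replicate 1.

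**Figure D5:**
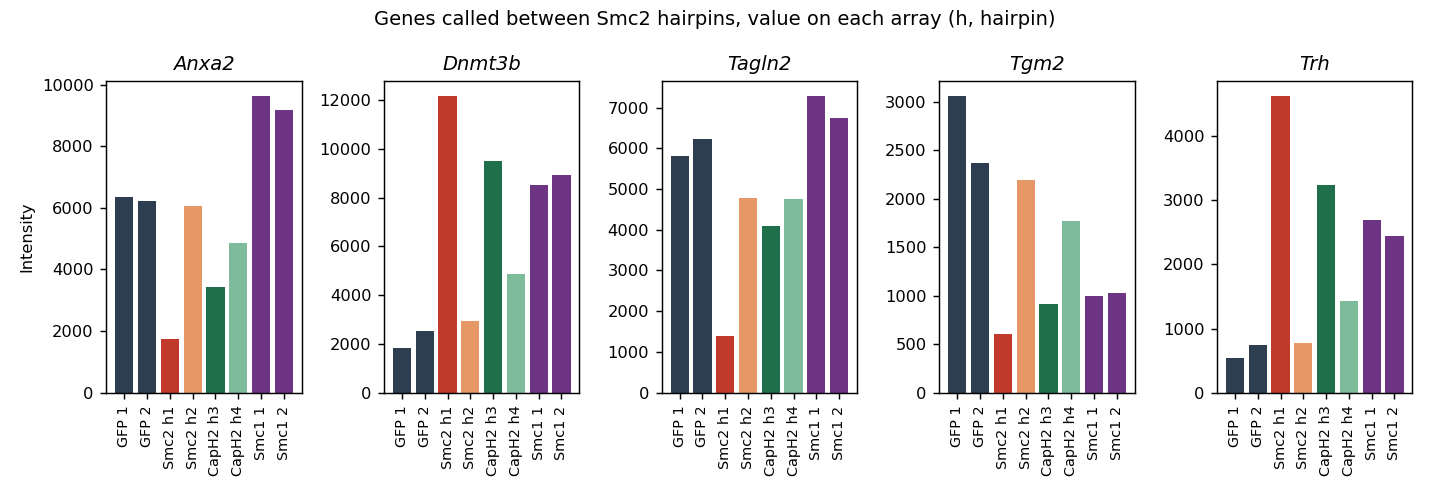
Intensity on all 8 arrays (bars from 0) for the 5 genes called between the Smc2 hairpins, with a separate scale for each gene; h stands for hairpin. The Smc2 hairpin 2 bar is near the GFP bars for Anxa2 (6042 against 6347 and 6226), Dnmt3b and Trh. The Smc2 hairpin 1 bar is further from the GFP bars than that of hairpin 2 in each gene. Bars of the other knockdowns also lie away from GFP, as for Dnmt3b with CapH2 hairpin 3 (9522) and Smc1 (8532 and 8935).

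Among the genes with the widest distance between hairpins, whether or not the test was passed, those higher with hairpin 1 also included Lpar4, a receptor for lysophosphatidic acid, at 901 and 166 against 9.77 and 92.9. Chst15, a chondroitin sulfotransferase, read 255 and 47.7 against 8.32 and 10.1, and Car2, a carbonic anhydrase, 3163 and 751 against 554 and 568. Qser1 and Myrf had hairpins on opposite sides of the GFP mean, with log2 changes of 1.93 and -0.31 for Qser1 and 1.64 and -0.52 for Myrf. Genes higher with hairpin 2 were mostly at the control level there and low with hairpin 1: Ndufa4l2, a mitochondrial protein induced by hypoxia, read 24.4 and 321 against 387 and 477. A2m, a protease inhibitor, read 259 and 1275 against 1338 and 2361, and Zc3h6, a zinc finger protein, 160 and 787 against 1009 and 876. Scel and Tmem191c again had their hairpins on opposite sides.

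Set directly against the CapH2 knockdown, in which a subunit of condensin II alone was targeted, Smc2 cells differed in 1 gene by limma (0.00807%), the CapH2 target itself, and 128 genes (1.03%) had an unadjusted p below 0.05. Ncaph2 read 2134 and 3049 in Smc2 cells against 398 and 430 in CapH2 cells, a log2 difference of 2.58 (SE 0.218, limma adjusted p = 0.00416). The count of 1 was 0 without the array of CapH2 hairpin 3, with the mean of all probe sets and without an intensity trend, and 3 without Smc2 hairpin 2. A p that misses the threshold does not show that the rest act alike. For Smc2 the values were 2234 and 2859 against 6088 and 7094 in the CapH2 cells.

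Against the Smc1 knockdown 433 genes were called (3.49%), 104 higher in Smc2 cells (0.839%) and 329 lower (2.65%). Of 18 naive pluripotency genes 6 were called higher with Smc2 and 0 lower, and of 18 general pluripotency genes 1, Nanog, was called higher. Pou5f1 and Sox2 (adjusted p = 0.0945 and 0.0917) and the naive genes Esrrb and Klf2 (0.0741 and 0.0723) did not pass. Klf4 read 8977 and 7334 in Smc2 cells against 2134 and 2660 in Smc1 cells, a log2 difference of 1.76 (SE 0.189, adjusted p = 0.00675). Tcl1, Prdm14, Zfp42 and Nanog were also higher with Smc2, by 1.62, 1.53, 0.96 and 0.58. Tcl1 and Prdm14, which lay below GFP in Smc2 cells, lay lower still in Smc1 cells.

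Lower in Smc2 than in Smc1 cells were Oasl2 (log2 difference -2.39), Cnn1 (-2.07), Myl9 (-1.95), Car3 (-1.94) and Cdkn1a (-1.36). Cdkn1a read 1629 and 2396 with Smc2, 5239 and 4976 with Smc1, and 2655 and 3487 with GFP, so the 2 knockdowns lay on opposite sides of the controls. Without Smc1 replicate 1 the count of 433 was 2.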

How the data were processed

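The series holds 8 Affymetrix mouse arrays of 1 colour, 2 per group. The deposited values are intensity, 1 linear number per probe set, with a summary method not given in the sources used here. Means over probe sets trimmed by 2% at each end lay between 488.9 and 490.0 on the 8 arrays, so none was rescaled. Of 44903 probe sets, 34771 carried exactly 1 symbol in the platform annotation, 926 several and 9206 none, and only the first were used, without the 64 array controls. Gene identifiers matched 34567 of them to GRCm38.p6 and changed 0 symbols. The brightest probe set by mean log2(value + 16) stood for each of 18140 genes, and 12394 genes above the array median on at least 2 arrays were tested. The arrays name no genome build, so positions come from RefSeq alone.

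All 8 arrays were fitted with limma 3.58.1 in R 4.3.3 by group means, with variances moderated along an intensity trend (residual degrees of freedom 4, prior 5.97), with Benjamini-Hochberg adjustment over all genes tested. The fit per hairpin had 2 residual and 9.61 prior degrees of freedom. The number of arrays limits the precision. In simulated data for the Smc2 comparison 12394 genes were used, with 50 changed at each size. The fit there called 2% of genes changed 1.5-fold, 26% at 2-fold, 74% at 4-fold and 92% at 8-fold, with 4 unchanged genes called. In the fit per hairpin, smaller simulated shares were called on hairpin 1 at each size. In the arrays themselves 2 genes were called, while 155 were 2-fold higher and 51 2-fold lower on both hairpins. The simulated shares may therefore not hold for these arrays.

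The 34 gene lists, the members and the tests were chosen with earlier results of these data known. Genes named are Smc2, the genes called, the 14 largest gaps each way, the condensin subunits, up to 4 members of each list with the largest gap, 8 further genes of general interest, the 8 widest hairpin differences each way, and those of them called against CapH2 or Smc1. Alternatives tried were other pseudocounts, filters, scalings, probe set rules and variance models, a term for the Actb ratio, a block on replicate number and leaving out each array.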

Additional observations from a re-analysis of the deposited data

Results flagged for a closer look

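Differences between knockdowns, or between hairpins, that passed their own limma test among the genes named stand here for a closer look; all were tested directly, with adjusted p over all genes tested. Between the Smc2 and CapH2 knockdowns the 1 such gene was Ncaph2, the CapH2 target, with a log2 difference of 2.58 (adjusted p = 0.00416); the count of 1 was 0 without the array of CapH2 hairpin 3, with the mean of all probe sets or without an intensity trend.

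Between the Smc2 and Smc1 knockdowns, these pluripotency genes were higher in Smc2 cells: Klf4 by 1.76 (adjusted p = 0.00675), Tcl1 by 1.62 (0.0288), Prdm14 by 1.53 (0.0462), Zfp42 by 0.96 (0.0162) and Nanog by 0.58 (0.0307). Lower in Smc2 cells were the interferon-induced Oasl2 at -2.39 (adjusted p = 0.0245), the contractile genes Cnn1 at -2.07 (0.0472) and Myl9 at -1.95 (0.0367), Car3 at -1.94 (0.0343), the p53 target Cdkn1a at -1.36 (0.0175) and Smc2 itself at -1.30 (0.0107).

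Between the Smc2 hairpins, Dnmt3b differed by -2.05 and Trh by -2.56 (hairpin 2 minus hairpin 1, adjusted p = 0.00889 for both), and Anxa2 by 1.80, Tagln2 by 1.78 (adjusted p = 0.00889 for both) and Tgm2 by 1.83 (0.0466) in the other direction. With 1 array per hairpin, the hairpin and its array cannot be told apart.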

How the results depend on the processing

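The fall of Smc2 and the rise of Hnrnpll kept their direction under every alternative run. For Smc2 the call was lost with the mean of all probe sets (log2 change -1.40, adjusted p = 0.194), without an intensity trend (-1.64, adjusted p = 0.123) and with only the 2 Smc2 and 2 GFP arrays (-1.64, adjusted p = 0.0649), and with single arrays left out the change lay between -1.82 and -1.46. For Hnrnpll it was lost without a trend (adjusted p = 0.123) and with only those 4 arrays (0.0635).

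The count of genes called against GFP, 2, became 0 without a trend or with only 4 arrays, 1 with the mean of all probe sets, 5 with a replicate block, 53 with a term for the Actb ratio and 299 with each hairpin as a group, and lay between 0 and 194 with single arrays left out. The replicate block left Smc2 at -1.64 (adjusted p = 0.0373); GFP numbers mark replicates and Smc2 numbers hairpins, so the pairs share only a number.

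The count of hairpin 1 calls, 893, was 70 without a filter, 263 with the mean of probe sets, 516 after quantile normalization and 0 without a trend, and 156 to 1744 with arrays left out; which genes were shared was not counted. The 1 hairpin 2 call became 3 with a pseudocount of 64 or a mean of at least 200, and 0 without a filter, with quantile normalization, median centring, the mean of probe sets or no trend, and 0 to 135 with arrays left out. The 5 calls between hairpins became 17 with a pseudocount of 64, 57 with a mean of at least 200, 8 with median centring, and 0 without a filter, with the mean of probe sets or without a trend, and 4 to 473 with arrays left out. Against CapH2 the count of 1 was 2 after quantile normalization, 0 with the mean of probe sets or without a trend, and 0 to 3 with arrays left out; against Smc1 the 433 became 178 without a filter and 128 without a trend, and 2 to 503 with arrays left out. With a count of 0, the cause was not tested.

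Genes 2-fold higher on both hairpins, 155, numbered 242 with a pseudocount of 1, 34 with 64 and 219 without a filter. They numbered 54 with a mean of at least 200, 86 with the mean of probe sets, and 179 to 535 with arrays left out. Those 2-fold lower, 51, numbered 21 with a pseudocount of 64, 155 without a filter, 16 with a mean of at least 200, and 48 to 702 with arrays left out. With arrays left out, 4267 to 4638 genes lay above and 3903 to 5217 below, since fewer arrays must agree. The mean correlation of the hairpins was 0.32, and 0.20 without a filter.

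Small changes turned sign: Rpl35 to 0.0062 and 0.0042 (quantile normalization, median centring) and Pou5f1 to 0.013 with median centring and 0.024 with the Actb term, under which Ncapg was 0.0060. With the mean of probe sets, Ncapd3 (0.13), Eif5a (0.023), Slf2 (-0.033), Rad50 (0.057), Med13 (0.056), Wapl (0.12), Nek2 (0.12) and Rpl27a (-0.12) turned. With arrays left out, Ncapg ranged from -0.45 to 0.14, Pou5f1 from -0.23 to 0.041, Zfp42 from -0.016 to 0.27, Scel from -2.27 to 0.37, Tmem191c from -1.68 to 0.48, Qser1 from -0.31 to 1.93 and Myrf from -0.52 to 1.64. The cause was not tested.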
